A study of Mus musculus with 12 samples.

Results

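The BCL2 family decides whether the outer mitochondrial membrane stays intact or is permeabilized, the step that commits a cell to intrinsic apoptosis. Here 9 of its genes were followed by name in mouse bone marrow-derived macrophages (BMDMs), out of 35275 genes listed in the count data. They are 3 anti-apoptotic members (Bcl2, Bcl2l1, which encodes BCL-XL, and Mcl1), 2 effectors (Bax and Bak1) and 4 BH3-only members (Bcl2l11, which encodes BIM, Bid, Bad and Bmf). All 9 passed the filter on low counts, which 12849 genes passed.

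The BMDMs were wild type and were cultured with M-CSF, IL-4 and IL-10, a mixture used to obtain a pro-tumor (M2) state. They received for 6 days the solvent DMSO, the PARP inhibitor olaparib, or MNA (methyl-nicotinamide, a methylated derivative of the NAD precursor nicotinamide), with 4 libraries in each group. The strain, age and sex of the donor mice were not given in the labels. For the whole study, the authors give an age range in weeks and both sexes for bone marrow donors, not by library. Total counts ran from 21146291 to 31446849 per library.

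Anti-apoptotic members hold the effectors in check and bind BH3-only members in a groove on their surface. Free effectors form pores in the outer membrane, cytochrome c leaves the mitochondrion, and caspases become active. BH3-only members respond to particular signals such as loss of growth factors, detachment, DNA damage or death receptor signaling, and macrophages kept in culture depend on M-CSF and on anti-apoptotic members to survive.

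The segment that the whole family shares is the BH3 motif, which in BH3-only members is the short helix that enters the groove. The bases that code for it are shown because they are the one feature common to the 3 classes. Each stretch has 27 bases, read 5′ to 3′ on the coding strand of a coding exon in GRCm38, with codons 5 and 6 of the motif in capitals. The stretches were found by a pattern of the translated reading frame, with leucine at codon 1, glycine, alanine or serine at codon 5, aspartate at codon 6 and a hydrophobic residue at codon 8.
Bcl2 (chr1:106712575-106712601, minus strand): ctccgccgggctGGGGATgacttctct
Bcl2l1 (chr2:152829697-152829723, minus strand): ctgagagaggcaGGCGATgagtttgaa
Mcl1 (chr3:95659436-95659462, plus strand): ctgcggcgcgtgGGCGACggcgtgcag
Bax (chr7:45465997-45466023, minus strand): ctccggcgaattGGAGATgaactggac
Bak1 (chr17:27022531-27022557, minus strand): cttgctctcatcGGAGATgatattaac
Bcl2l11 (chr2:128147150-128147176, plus strand): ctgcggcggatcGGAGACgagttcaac
Bid (chr6:120897289-120897315, minus strand): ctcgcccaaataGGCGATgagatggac
Bad (chr19:6950792-6950818, plus strand): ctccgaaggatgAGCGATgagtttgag
Bmf (chr2:118545100-118545126, minus strand): cttcagtgtattGCAGACcagttccat
The pattern fixes aspartate at codon 6 and the 3 residues allowed at codon 5, where 7 members had a GGN codon, Bad AGC and Bmf GCA. In Bad it matched at 2 positions, and the one shown lay in all 8 coding transcripts while the other lay in 1. In 4 members not every annotated coding transcript held a match: it lay in 6 of 8 of Bcl2l1, in 4 of 5 of Bcl2l11, in 4 of 5 of Bax and in 1 of 2 of Bid. The counts were made per gene, so isoforms could not be told apart.

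MNA replicate 2 stood apart from the other 3 MNA libraries. MNA means and fold changes cover all 4 libraries unless stated, and the value of replicate 2 or the result without it is given beside them. It lay nearer to the DMSO mean than to the mean of MNA replicates 1, 3 and 4 for 7 of the 9 members (Bcl2l1 and Mcl1 were the exceptions), as it did for 81.7% of the 12849 tested genes. Macrophage markers (10 genes, summed) were at 36994 to 57540 CPM (counts scaled for library size) in DMSO, 27264 to 40523 in olaparib and 6469 to 35318 in MNA, where replicate 2 held the highest value. Chil3 was the highest gene of this list in every group, so the sum does not measure the number of macrophages. Lists of other cell types moved as well. The dendritic cell list, led by Itgax, which macrophages also express, summed to 1564 to 1800 CPM in DMSO, 2413 to 2672 in olaparib and 1654 to 2375 in MNA. The neutrophil list, led by Mmp8, summed to 6.22 to 20.0 CPM in DMSO, 58.5 to 72.7 in olaparib and 5.62 to 80.9 in MNA, and the eosinophil list, led by Siglecf, to 3.92 to 7.02, 31.4 to 59.1 and 5.01 to 10.1. The erythroid list had medians of 0.135, 0.037 and 0.059 CPM and reached 56.0 CPM in MNA, led by Hba-a1. The lymphoid list reached 20.7 CPM, the basophil and mast cell list 10.0 and the stromal list 2.57. Of the genes in these lists, 1 of 10 lymphoid (Igll1), 1 of 7 basophil and mast cell (Fcer1a), 1 of 5 eosinophil (Epx), 1 of 6 erythroid (Hba-a2) and 2 of 6 stromal genes (Col3a1 and Lum) were at or under 3 counts in every library. Mitochondrial genes took 1.04% to 1.35% of counts in DMSO, 1.60% to 1.83% in olaparib and 1.14% to 2.26% in MNA. A proliferation list of 10 genes summed to 273 to 339 CPM in DMSO, 427 to 533 in olaparib and 298 to 536 in MNA, with replicate 2 at 298. The part of these shifts in the results for the members was not tested, and in bulk RNA fewer cells of a type cannot be told apart from less RNA per cell.

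Levels can be set side by side between genes only per length, so CPM were divided by the exon length in kilobases (kb). That length joins the exons of all annotated transcripts of a gene, whether or not they were expressed here. The order of the genes depends on it, and the ranges of the libraries do not include that uncertainty. In DMSO-treated BMDMs, Mcl1 was the highest member at 166 ± 5.98 CPM per kb (SD, n = 4), followed by Bax at 73.2 ± 7.40, Bak1 at 32.6 ± 1.46, Bcl2l1 at 16.2 ± 1.38 and Bcl2 at 8.01 ± 0.426. None of these neighbors overlapped in the 4 libraries. Bad, Bid and Bcl2l11 came next at 6.51, 5.43 and 5.30 CPM per kb, and in this order neither Bad and Bid nor Bid and Bcl2l11 could be separated by their libraries. Bmf was last at 0.0833 ± 0.0049 CPM per kb. Mcl1 lay at percentile 98.2 of the tested genes on this scale and Bmf at percentile 3.87.

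The first 4 places (Mcl1, Bax, Bak1, Bcl2l1) and the last (Bmf) were the same in all 3 groups. The middle of the order was not. With olaparib, Bcl2l11 was the next member after Bcl2l1 at 7.93 CPM per kb and overlapped Bad at 7.78, while Bcl2 came after Bad at 6.22 and Bid after Bcl2 at 3.58, without overlap between Bad, Bcl2, Bid and Bmf. With MNA, Bcl2l11, Bad, Bid and Bcl2 stood at 6.91, 6.88, 6.56 and 5.53 CPM per kb, and each overlapped the next. In MNA replicates 1, 3 and 4 the order was the same, at 7.54, 7.20, 6.95 and 5.00 CPM per kb, and Bid and Bcl2 did not overlap. Bmf reached percentile 13.6 with olaparib and 15.8 with MNA.

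**Figure D1:**
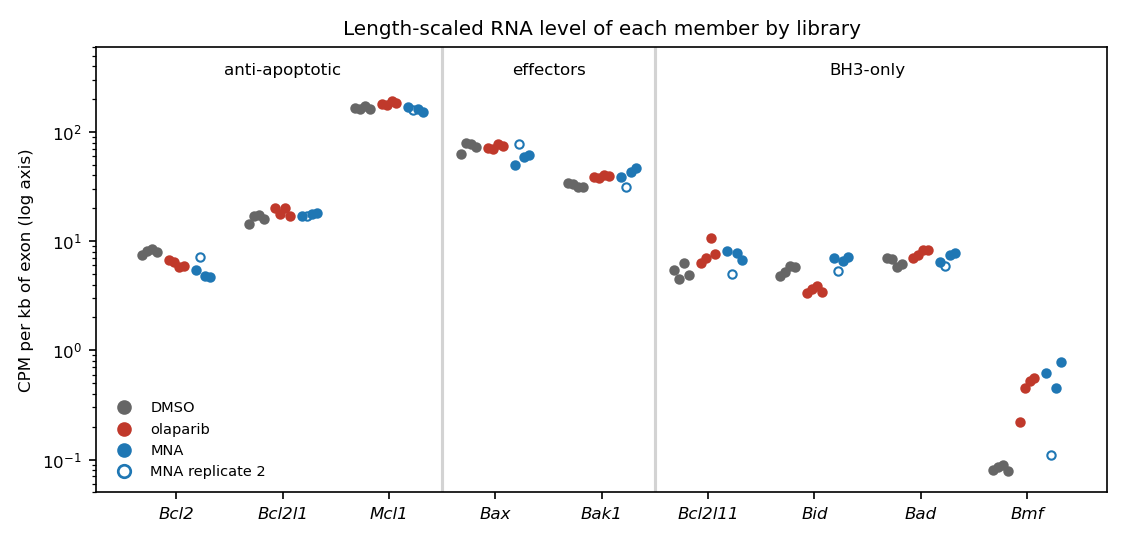
CPM per kb of exon (log axis) for the 9 members in each of the 12 libraries, grouped by class, with 1 point per library and MNA replicate 2 hollow. Mcl1 has means of 166 CPM per kb in DMSO, 183 with olaparib and 161 with MNA. Bmf lies below 1 in every group, and Bcl2l11, Bid, Bad and Bcl2 change places between groups.

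Olaparib against DMSO asked which members differed in PARP inhibitor-treated macrophages. The BH3-only genes Bcl2l11 and Bmf were up-regulated, the anti-apoptotic gene Bcl2 and the BH3-only gene Bid were down-regulated, and the effectors did not pass the test. These are 4 of 9 members at an adjusted p under 0.05 (edgeR quasi-likelihood test, Benjamini-Hochberg over all tested genes), where 27.0% of all tested genes were called (14.3% up and 12.8% down). The median log2 fold change of the 9 members was 0.21, against 0.00 over all tested genes. Without MNA replicate 2, which lowers the common dispersion of the fit from 0.0333 to 0.0123, 8 of 9 members were called (Bcl2l1, Mcl1, Bak1, Bcl2l11, Bad and Bmf up, Bcl2 and Bid down), beside 43.7% of all tested genes (22.5% up and 21.2% down).

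MNA against DMSO used the same DMSO libraries. Bcl2 was down-regulated, and Bmf and the effector Bak1 were up-regulated. This is 3 of 9 members, beside 28.6% of all tested genes (16.3% up and 12.3% down), and the median log2 fold change of the members was 0.11. Without MNA replicate 2, 6 of 9 were called (Bak1, Bcl2l11, Bid and Bmf up, Bcl2 and Bax down), beside 54.1% of all tested genes (27.2% up and 26.9% down).

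Olaparib against MNA set the treatments against each other directly. Mcl1 was higher and Bid lower with olaparib, which is 2 of 9 members beside 21.8% of all tested genes (10.9% in each direction). Without MNA replicate 2, Bcl2, Mcl1 and Bax were higher and Bid was lower, beside 42.3% of all tested genes (21.5% up and 20.7% down).

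**Figure D2:**
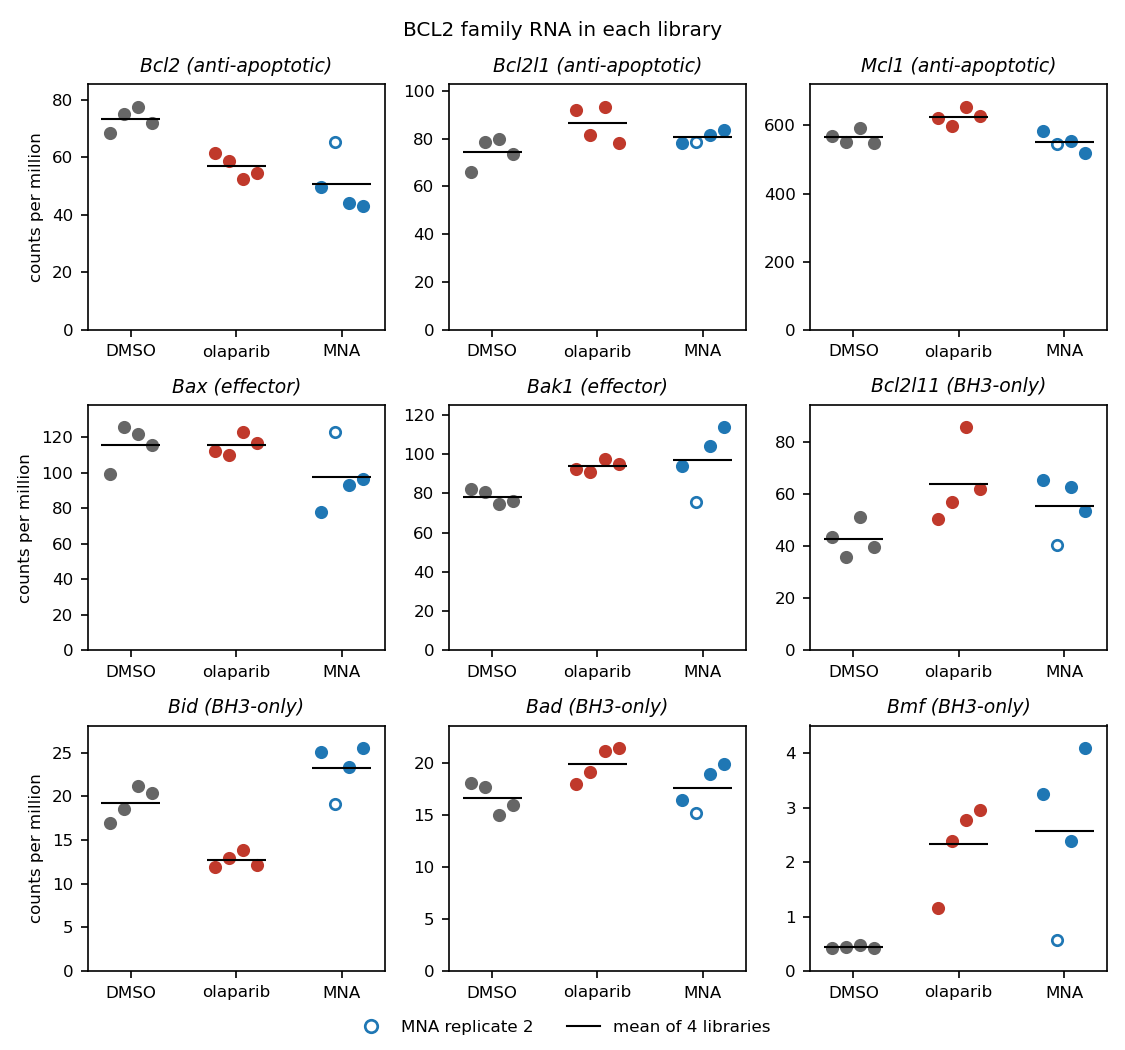
CPM of each member by group (vertical axes start at 0 and differ in scale), with 1 point per library, MNA replicate 2 hollow and a line at the mean of 4 libraries. Bcl2 lies lower and Bmf higher in both treated groups than in DMSO, Bid lies lowest with olaparib, and MNA replicate 2 sits among or next to the DMSO libraries for most members.

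Bcl2, the founding member, blocks BAX and BAK at mitochondria and the endoplasmic reticulum. It was at 68.6, 75.1, 77.6 and 72.2 CPM in the DMSO libraries and at 61.6, 58.8, 52.7 and 54.7 CPM in the olaparib libraries. MNA replicates 1, 3 and 4 held 49.9, 44.2 and 43.2 CPM, and replicate 2 held 65.3. Every treated library, MNA replicate 2 included, was below every DMSO library, and MNA replicates 1, 3 and 4 were also below every olaparib library. The log2 fold change was -0.37 ± 0.12 (SE) with olaparib (adjusted p = 0.0350) and -0.54 ± 0.12 with MNA (adjusted p = 0.0147), which became -0.68 without MNA replicate 2. The olaparib call was lost when any 1 of DMSO replicates 2, 3 and 4 or olaparib replicates 2, 3 and 4 was left out (log2 fold changes of -0.41 to -0.33 and adjusted p up to 0.0903 over the 12 omissions). MNA replicate 2 is in neither group of this contrast but adds to the shared dispersion. Without it the olaparib log2 fold change was -0.37 (adjusted p = 5.18e-04). The MNA call was lost without MNA replicate 3 or 4 (adjusted p up to 0.0524, log2 fold change no nearer to 0 than -0.47). Between the treatments Bcl2 differed by 0.17 (adjusted p = 0.321), and by 0.32 without MNA replicate 2 (adjusted p = 0.00287).

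Bcl2l1, whose main product BCL-XL shares the role of BCL2, ran from 65.9 to 79.9 CPM in DMSO, 78.3 to 93.3 with olaparib and 78.3 to 83.6 with MNA, where replicate 2 held 78.7. The groups overlapped, and the log2 fold changes of 0.21 (adjusted p = 0.0549) and 0.11 (adjusted p = 0.265) did not pass the test. Without MNA replicate 2 the olaparib change was 0.21 (adjusted p = 0.0281), and it passed in 2 of the 12 fits that left out 1 library. Mcl1 encodes a short-lived protein on which myeloid cells rely for survival. It was at 568, 552, 594 and 549 CPM in DMSO, at 621, 598, 655 and 628 CPM with olaparib, and at 583, 553 and 519 CPM in MNA replicates 1, 3 and 4, with replicate 2 at 546 CPM. The olaparib libraries were all above the DMSO and MNA libraries. Olaparib against DMSO gave 0.14 ± 0.06 on the log2 scale (adjusted p = 0.0923, or 0.0475 without MNA replicate 2). Olaparib against MNA gave 0.18 ± 0.06 (adjusted p = 0.0462). The call against MNA held in only 2 of the 12 fits that left out 1 library (MNA replicate 1 or 2). Over those 12 fits the adjusted p went up to 0.133, with log2 fold changes of 0.15 to 0.21. The call against MNA did not hold with the replicate number as a block (adjusted p = 0.0521).

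The effectors differed from each other. Bax, the cytosolic effector and a known p53 target, was at 99.1, 125, 122 and 116 CPM in DMSO and at 112, 110, 123 and 117 CPM with olaparib. In MNA replicates 1, 3 and 4 it was at 77.8, 92.7 and 96.3 CPM, below every DMSO library, while replicate 2 held 123 CPM. The log2 difference with olaparib was -0.00 ± 0.12 (adjusted p = 0.988), and its sign changed between settings. With MNA it was -0.24 ± 0.12 (adjusted p = 0.129), and -0.38 without MNA replicate 2 (adjusted p = 0.00263). Of the Bax exon length, 12.2% is shared on the same strand with the gene model Gm45808, which was not analysed here.

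Bak1, the effector that resides in the outer membrane, was at 82.1, 80.6, 74.8 and 76.2 CPM in DMSO and at 92.3, 90.8, 97.4 and 95.3 CPM with olaparib. MNA replicates 1, 3 and 4 held 93.9, 104 and 114 CPM, and replicate 2 held 75.7. All olaparib libraries and MNA replicates 1, 3 and 4 were above all DMSO libraries. The log2 fold change was 0.26 ± 0.10 with olaparib (adjusted p = 0.0712) and 0.31 ± 0.10 with MNA (adjusted p = 0.0409). Leaving out any single library other than MNA replicate 2 ended the MNA call (adjusted p of 0.0526 to 0.126, log2 fold changes of at least 0.22), and without MNA replicate 2 it was 0.41 with an adjusted p of 1.27e-04. Olaparib against DMSO gave 0.26 in that fit (adjusted p = 0.0034). Of the Bak1 exon length, 25.5% overlaps Ggnbp1 on the opposite strand, a gene with 12 to 45 counts per library against at least 1752 for Bak1.

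Bid differed more between the treatments than any other of the 9 members. Its product is cut by caspase-8 and carries death receptor signals to mitochondria. Bid was at 17.0, 18.6, 21.2 and 20.4 CPM in DMSO, and at 11.9, 13.0, 13.8 and 12.2 CPM with olaparib. MNA replicates 1, 3 and 4 held 25.1, 23.4 and 25.6 CPM, and replicate 2 held 19.1. All olaparib libraries were below all others, and MNA replicates 1, 3 and 4 were above all DMSO libraries. The log2 fold change was -0.60 ± 0.11 with olaparib (adjusted p = 0.00249) and 0.27 ± 0.10 with MNA (adjusted p = 0.0676), or 0.35 without MNA replicate 2 (adjusted p = 0.00383). Tested directly, olaparib against MNA gave -0.87 ± 0.11 (adjusted p = 2.16e-04). The olaparib calls held in all 12 fits that left out 1 library, with adjusted p up to 0.0101 against DMSO and up to 0.00126 against MNA. Bcl2l13, whose exons overlap 17.7% of the Bid exon length on the opposite strand, gave -0.17 with olaparib (adjusted p = 0.0758) and 0.00 with MNA (adjusted p = 0.971).

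Bcl2l11 encodes BIM, a potent BH3-only protein induced when growth factors are withdrawn. It was at 43.6, 35.9, 51.0 and 39.7 CPM in DMSO and at 50.4, 56.8, 85.6 and 61.8 CPM with olaparib. MNA replicates 1, 3 and 4 held 65.5, 62.5 and 53.5 CPM, and replicate 2 held 40.3. The lowest olaparib library lay just under the highest DMSO library, and MNA replicates 1, 3 and 4 were above all DMSO libraries. The log2 fold change was 0.58 ± 0.18 with olaparib (adjusted p = 0.0349) and 0.38 ± 0.18 with MNA (adjusted p = 0.124), or 0.51 without MNA replicate 2 (adjusted p = 0.0140). With the replicate number as a block, the MNA difference passed (adjusted p = 0.0451). This olaparib call did not survive the omission of olaparib replicate 3 or 4, or of DMSO replicate 1, 2 or 4 (adjusted p up to 0.104), and the change ranged from 0.40 to 0.68. Without MNA replicate 2 the olaparib difference was 0.58 (adjusted p = 0.00559). The member varied more between olaparib libraries than any other except Bmf, with a coefficient of variation of 24.1%.

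Bmf, a BH3-only protein held on the actin cytoskeleton and released on detachment, had the largest fold changes of the 9 members and the fewest reads. It had 9, 13, 14 and 13 counts in DMSO, 33, 61, 66 and 85 with olaparib, and 79, 62 and 102 in MNA replicates 1, 3 and 4, while replicate 2 had 16. In CPM these were 0.422, 0.447, 0.469 and 0.413 in DMSO, 1.17, 2.40, 2.78 and 2.96 with olaparib, and 3.25, 2.39 and 4.10 in MNA replicates 1, 3 and 4, with replicate 2 at 0.573. Every treated library, MNA replicate 2 included, was above every DMSO library. The log2 fold change was 2.39 ± 0.51 with olaparib (adjusted p = 0.00611) and 2.54 ± 0.51 with MNA (adjusted p = 0.0142), or 2.87 without MNA replicate 2. Both calls held in all 12 fits that left out 1 library (adjusted p up to 0.0212 and up to 0.0488). The MNA call of Bmf did not hold in the fit of DMSO and MNA alone (adjusted p = 0.0640), which called 0 of all tested genes. Olaparib and MNA did not differ by the test (-0.15 ± 0.45, adjusted p = 0.855).

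Bad, which 14-3-3 proteins hold in the cytosol while growth factor signaling is on, ran from 14.9 to 18.0 CPM in DMSO, 17.9 to 21.4 with olaparib and 15.1 to 19.9 with MNA, where replicate 2 was the lowest. The log2 differences of 0.26 (adjusted p = 0.0827) and 0.08 (adjusted p = 0.564) did not pass the test. Without MNA replicate 2 the olaparib difference was 0.26 (adjusted p = 0.0323), and it passed in only 1 of the 12 fits that left out 1 library. On the opposite strand Gpr137 overlaps 20.5% of the Bad exon length, and its own values were 0.17 with olaparib (adjusted p = 0.332) and 0.52 with MNA (adjusted p = 0.0174).

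Counted by range alone, 5 members did not overlap between olaparib and DMSO (Mcl1, Bak1 and Bmf above, Bcl2 and Bid below), beside 41.0% of tested genes. Between MNA and DMSO 2 members did not (Bmf above, Bcl2 below), beside 12.4%, and without MNA replicate 2 there were 6, beside 54.4%. Between olaparib and MNA 2 members did not (Mcl1 above, Bid below), beside 21.2%, and without MNA replicate 2 there were 4, beside 46.3%.

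**Figure D3:**
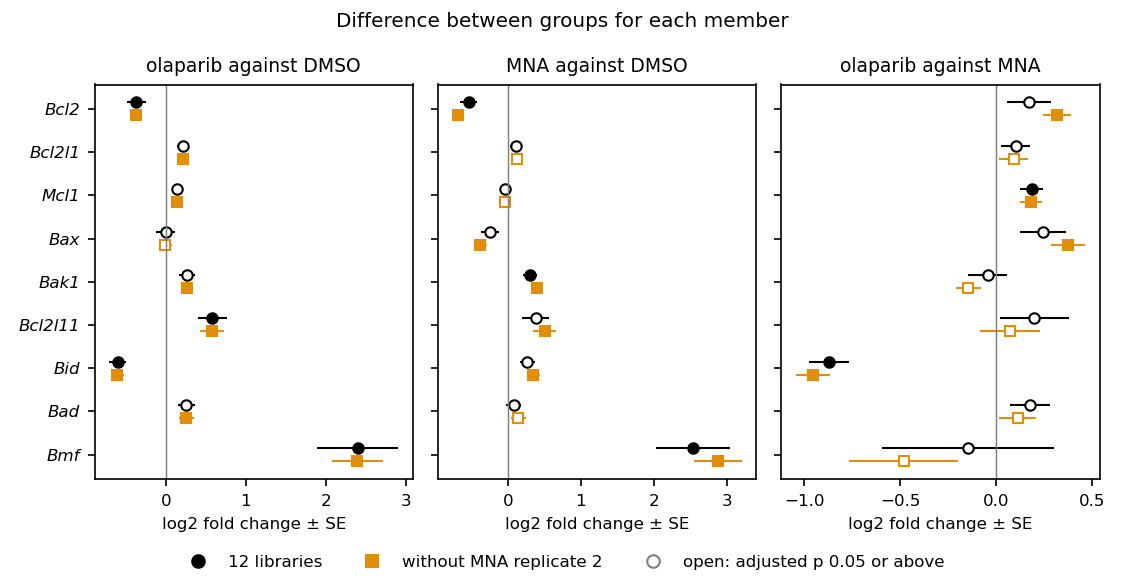
Log2 fold change ± SE of each member in the 3 contrasts, from all 12 libraries (circles) and without MNA replicate 2 (squares), with filled symbols at an adjusted p under 0.05. Bmf lies above 2 in both contrasts with DMSO, Bcl2 lies below 0 in both, and Bid lies at -0.60 with olaparib and 0.27 with MNA.

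Since family members act through their balance, ratios between pairs were taken inside each library from counts, which compares groups and not the levels of the genes. Each ratio follows from the values of its members given above and is no separate result. The log2 ratio of Bcl2l11 to Bcl2 was -0.80 ± 0.21 (SD, n = 4) in DMSO, 0.13 ± 0.42 with olaparib and 0.13 ± 0.55 with MNA. It ran from -1.07 to -0.61 in DMSO, from -0.29 to 0.70 with olaparib and from 0.31 to 0.50 in MNA replicates 1, 3 and 4, while replicate 2 was at -0.70. Except for MNA replicate 2, every treated library had a higher ratio than every DMSO library. Bcl2l11 to Mcl1 did not separate olaparib from DMSO. Its log2 ratio ran from -3.94 to -3.54 in DMSO and from -3.62 to -2.94 with olaparib. In MNA replicates 1, 3 and 4 it ran from -3.28 to -3.15, above every DMSO library, with replicate 2 at -3.76. Bak1 to Mcl1 was -2.85 ± 0.10 in DMSO, -2.73 ± 0.02 with olaparib and -2.52 ± 0.29 with MNA. All olaparib libraries were above DMSO in that ratio.

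The log2 ratio of Bax to Bcl2 was 0.65 ± 0.09 in DMSO, 1.02 ± 0.17 with olaparib and 0.95 ± 0.23 with MNA. The olaparib libraries were all above DMSO, and MNA replicate 1 (0.64) lay inside the DMSO range of 0.53 to 0.74. Of the pair, Bcl2 passed the test in both treated groups and Bax in neither. The log2 ratio of Bcl2l1 to Bcl2 was 0.02 ± 0.05 in DMSO, 0.60 ± 0.16 with olaparib and 0.69 ± 0.31 with MNA, and its lowest treated value, 0.27 in MNA replicate 2, was above the highest DMSO value of 0.07.

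Bid to Bcl2l1 separated the treatments. Its log2 ratio was -1.95 ± 0.10 in DMSO, -2.76 ± 0.13 with olaparib and -1.80 ± 0.18 with MNA, and all olaparib libraries were below all others. Summed by class, anti-apoptotic members made 60.7% ± 1.36 (SD, n = 4) of the members' CPM per kb in DMSO, 61.2% ± 0.761 with olaparib and 60.0% ± 2.65 with MNA. The effectors made 33.8%, 33.0% and 33.2%. BH3-only members made 5.54% ± 0.193 in DMSO, 5.79% ± 0.600 with olaparib and 6.79% ± 0.998 with MNA, or 7.29% ± 0.0864 in MNA replicates 1, 3 and 4. In DMSO, Mcl1 alone held 166 of the 190 CPM per kb of the anti-apoptotic class, and Bax 73.2 of the 106 of the effectors. Bmf held 0.0833 of the 17.3 of the BH3-only class. The shares therefore follow mainly the highest members and hardly register Bcl2 or Bmf. These ratios and shares were not tested.

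**Figure D4:**
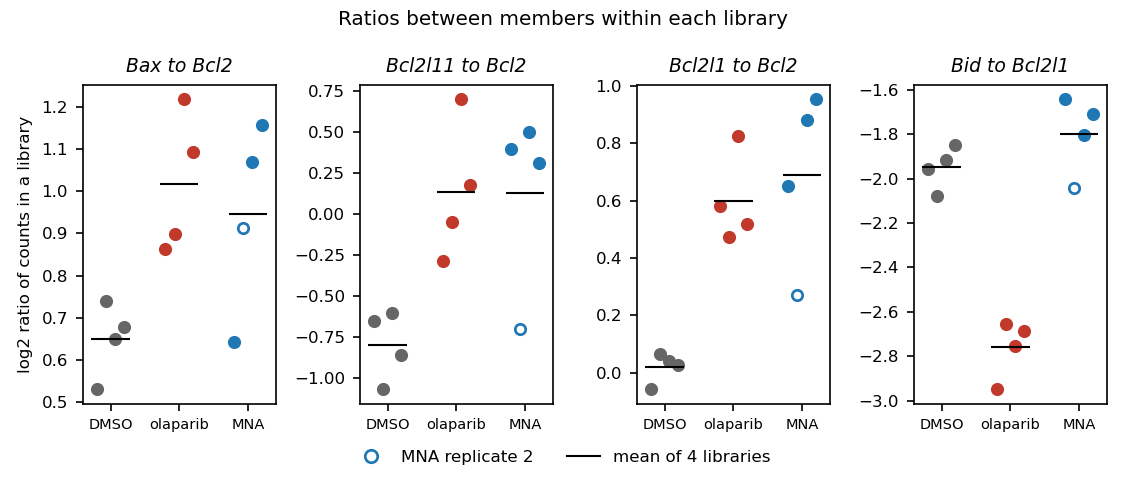
Log2 ratio of the counts of 2 members within each library, by group, for 4 pairs (vertical axes differ), with MNA replicate 2 hollow and a line at the mean of 4 libraries. Bcl2l11 to Bcl2 and Bcl2l1 to Bcl2 are higher in the treated groups, and Bid to Bcl2l1 is near -2.76 with olaparib only.

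Of 8 short motifs searched at the promoters, the letters TGTTTAC, which FOXO factors are known to bind, occurred in 1 member, Bcl2l11. The search covered both strands of windows from 250 bases before to 50 after each annotated start (RefSeq, GRCm38.p6). The 9 members have 15 such windows, since 4 of them have several starts, and 1 of the 15 holds these letters. They occur in 3.65% of the 32851 windows of all genes. In Bcl2l11 they lie in reverse complement from 227 bases before the start. The window (chr2:128125788-128126087, plus strand) is shown with the match in capitals, as a description of the sequence and not as a shown site. Of the other motifs, GGGCGG lay in 8 of the 15 windows, in 7 members (35.7% of all windows), the kappaB motif in 2, of Bcl2l1 and Mcl1 (1.63%), and CACGTG in 1, of Bax (7.15%). TATAAA, TGACGTCA, TTCNNNGAA and the ISRE core lay in none of the members' windows.
Bcl2l11 promoter: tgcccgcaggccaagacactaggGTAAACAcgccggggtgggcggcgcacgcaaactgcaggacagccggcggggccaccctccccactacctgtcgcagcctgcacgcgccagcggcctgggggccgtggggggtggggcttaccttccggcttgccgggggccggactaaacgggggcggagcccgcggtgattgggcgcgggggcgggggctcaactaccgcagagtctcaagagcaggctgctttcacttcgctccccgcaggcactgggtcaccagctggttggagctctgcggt

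The genes around the family were described from 4 lists of 69 genes in all, of which 63 were tested. With olaparib 6 rose and 11 fell, and with MNA 12 rose and 5 fell, which is 17 called in each. That is 27.0% of these genes in each contrast, beside 27.0% of all tested genes with olaparib and 28.6% with MNA, so their share was that of the background. Without MNA replicate 2 these became 12 and 17 with olaparib (46.0%, beside 43.7%) and 19 and 16 with MNA (55.6%, beside 54.1%). The counts of the single lists are to be read against the same shares. The median log2 fold change was 0.00 with olaparib and 0.03 with MNA, beside 0.00 over all tested genes in each.

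Of 11 tested further BCL2 relatives, 1 passed with olaparib, and 2 rose and 2 fell with MNA (9.09% and 36.4%, beside 27.0% and 28.6% of all tested genes). When MNA replicate 2 was left out, 3 rose and 2 fell with olaparib, and 2 rose and 5 fell with MNA. Pmaip1, which encodes the MCL1-binding BH3-only protein NOXA, rose with olaparib (log2 fold change 0.64, adjusted p = 0.0390, from 3.83 ± 0.560 to 5.98 ± 1.05 CPM) and with MNA (6.89 ± 1.92 CPM, 0.84, adjusted p = 0.0192), where replicate 2 held 4.58 CPM and the other 3 libraries 7.66 ± 1.41. Bbc3, which encodes PUMA, fell with MNA from 40.9 ± 5.86 to 23.7 ± 9.79 CPM (-0.79, adjusted p = 0.0244), with MNA replicate 2 at 38.1 CPM. With olaparib Bbc3 gave -0.27 (adjusted p = 0.354), or -0.28 without MNA replicate 2 (adjusted p = 0.0405). Bnip3, a mitochondrial relative induced in hypoxia, rose with MNA (0.78, adjusted p = 0.0247), from 6.91 ± 0.711 CPM to 13.7 ± 1.83 in replicates 1, 3 and 4, while replicate 2 held 6.41. With olaparib Bnip3 gave 0.50 (adjusted p = 0.106), and 0.50 also without MNA replicate 2 (adjusted p = 0.00369). Bcl2a1b, an inducible anti-apoptotic relative with near-identical copies that may share reads, gave 1.21 with olaparib (adjusted p = 0.0605).

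Of 16 genes of the apoptosome and the caspases, 2 rose and 1 fell with olaparib, and 6 rose with MNA (18.8% and 37.5%, beside 27.0% and 28.6%). These became 4 and 1 with olaparib and 6 and 2 with MNA without MNA replicate 2. Casp6, which encodes an effector caspase, rose with MNA from 32.6 ± 4.84 to 53.2 ± 12.2 CPM (0.71, adjusted p = 0.0154), with MNA replicate 2 at 35.0 CPM, and gave 0.44 with olaparib (adjusted p = 0.0523). Aifm1, a mitochondrial flavoprotein, rose with olaparib (0.42, adjusted p = 0.0192) and with MNA (0.39, adjusted p = 0.0275), with MNA replicate 2 at 27.2 CPM beside 26.8 ± 2.76 in DMSO. Birc6, a large inhibitor of apoptosis, fell with olaparib (-0.23, adjusted p = 0.0442) and gave -0.08 with MNA (adjusted p = 0.436).

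Of 11 genes of the death receptor arm, 1 rose and 2 fell with olaparib, and 3 rose with MNA (27.3% in each, beside 27.0% and 28.6%). In the fit without MNA replicate 2, 3 rose and 3 fell with olaparib, and 7 rose and 2 fell with MNA. Tnfrsf10b, the mouse TRAIL receptor and a p53 target, rose from 3.71 ± 0.538 CPM to 11.3 ± 2.07 with olaparib (1.61, adjusted p = 1.03e-04) and 5.86 ± 0.854 with MNA (0.66, adjusted p = 0.0202), where replicate 2 held 4.69, and the treatments differed by 0.95 (adjusted p = 0.00209). Fadd, the adaptor that recruits caspase-8, fell with olaparib from 11.7 ± 0.588 to 7.92 ± 1.19 CPM (-0.56, adjusted p = 0.00400), and so did Ripk1 (-0.15, adjusted p = 0.0470). Tnf and its receptor Tnfrsf1a rose with MNA by 0.63 and 0.26 (adjusted p = 0.0253 and 0.0225), and by 0.72 and 0.32 without MNA replicate 2.

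Of 25 tested partners and regulators of the members, 2 rose and 8 fell with olaparib, and 1 rose and 3 fell with MNA (40.0% and 16.0%, beside 27.0% and 28.6%). Leaving out MNA replicate 2, 2 rose and 11 fell with olaparib, and 4 rose and 7 fell with MNA. Fbxw7, the ubiquitin ligase subunit that targets MCL1, fell from 76.3 ± 9.90 CPM to 39.5 ± 3.59 with olaparib (-0.95, adjusted p = 0.00423) and 44.6 ± 15.5 with MNA (-0.77, adjusted p = 0.0181), where replicate 2 held 67.6 CPM and the other 3 libraries 36.9 ± 2.25. Pim1 and Pim3, kinases that phosphorylate BAD, fell with olaparib by 0.48 and 0.60 on the log2 scale (adjusted p = 0.00467 and 0.00369). Their relative Pim2 rose with MNA (1.61, adjusted p = 0.0142), from 1.87 ± 0.278 CPM to 6.92 ± 0.925 in replicates 1, 3 and 4, while replicate 2 held 2.08. Vdac3, an outer membrane channel, fell with MNA (-0.52, adjusted p = 0.0283), with MNA replicate 2 at 171 CPM beside 169 ± 7.32 in DMSO. With olaparib Vdac3 gave -0.42 (adjusted p = 0.0557), or -0.43 without MNA replicate 2 (adjusted p = 3.30e-05). The calls of Tnfrsf10b, Fadd, Fbxw7, Pim1 and Pim3 with olaparib and of Pim2 with MNA held whichever of the 12 libraries was left out, and the other calls named from these lists held in 2 to 10 of the 12 omissions.

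**Figure D5:**
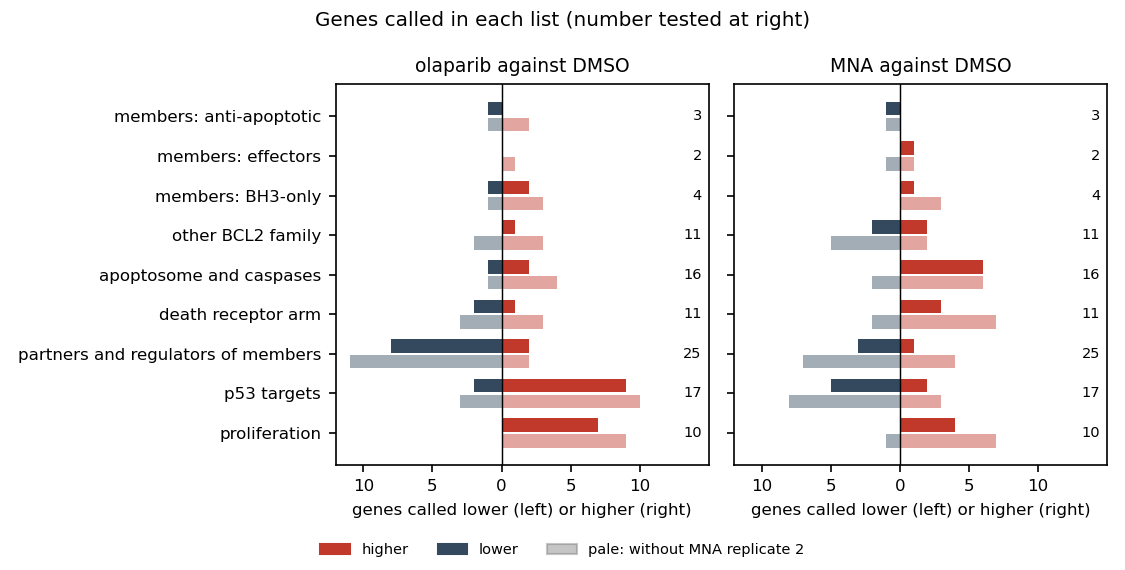
Number of genes called lower (left) and higher (right) in each list for the contrasts with DMSO, from all 12 libraries (dark) and without MNA replicate 2 (pale), with the number tested at the right. The caspase list has 6 genes higher with MNA from all 12 libraries, and the partner list has 8 lower and 2 higher with olaparib.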

How the data were processed

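The authors aligned reads of 12 stranded mRNA libraries with STAR 2.5.2b to GRCm38.p5 (per the labels) and deposited raw counts per Ensembl gene. Which strand column was counted is not given in the sources used here. Symbols and exon lengths came from GENCODE vM21 of GRCm38, which held 34490 of the 35275 listed genes. The members and lists were chosen with earlier results of these data known. Genes were filtered with filterByExpr (minimum count 10, minimum total 15), scaled by TMM and tested in 1 fit of all 12 libraries without covariates, with edgeR 4.0.16 quasi-likelihood tests in R 4.3.3. CPM use TMM-scaled library sizes. Groups came from the sample titles. The authors' figure legends give the number of donor mice for the RNA-seq. Neither they nor the labels say which libraries came from separate mice, so p-values measure the spread between these libraries, which may be technical. All 9 members are reported, with the 3 genes of smallest p per list and contrast, and 1 nearest gene per member. Some results of this rule are not reported here.

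Same-numbered olaparib and DMSO libraries deviated together (r of 0.172 to 0.408 over genes), so the replicate number was tried as a block. DESeq2 1.42.0, RLE and upper quartile scaling, other filters, fits of 2 groups, a threshold of 0.01 and omission of each library were also tried. The scripts were tested on simulated data. Counting error limits Bmf, with 9 to 102 counts.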

Additional observations from a re-analysis of the deposited data

How the results depend on the processing

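The 4 members called with olaparib against DMSO (27.0% of all tested genes) became 8 in the fit of 2 groups alone (45.4%) and with the replicate block without MNA replicate 2 (47.0%), 6 with DESeq2 (32.3%) and upper quartile scaling (26.7%), and 2 at an adjusted p under 0.01 (10.8%). Leaving out 1 library gave 2 to 8 (16.6% to 43.7%). The 3 called with MNA (28.6%) became 6 with the replicate block without MNA replicate 2 (55.0%), and 0 in the edgeR fit of 2 groups alone (5 at an unadjusted p under 0.05) and 0 at an adjusted p under 0.01 (DESeq2 called 3 at 0.05 and 2 at 0.01). Leaving out 1 library gave 1 to 6 (3.55% to 54.1%). The 2 called in olaparib against MNA (21.8%) became 1 without a filter (10.7%), with the replicate block (22.2%), in the fit of 2 groups (14.4%) and at 0.01 (9.07%), and 4 with the replicate block without MNA replicate 2 (44.1%), and leaving out 1 library gave 1 to 4 (14.9% to 42.3%).

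Read against the same shares, the 17 pathway genes called with olaparib became 10 without a filter (13.7% of all tested genes), 31 with the replicate block without MNA replicate 2, 30 in the fit of 2 groups and 6 at 0.01 (7 to 29 over omissions). The 17 with MNA became 34 with that block, and 0 in the edgeR fit of 2 groups (24 at an unadjusted p under 0.05) and 0 at 0.01 (DESeq2 called 24 at 0.05 and 16 at 0.01), or 1 to 35 over omissions. The 14 in olaparib against MNA became 34 with that block, 8 in the fit of 2 groups and 4 at 0.01 (8 to 31 over omissions). The fit of DMSO and MNA alone called 0 of all tested genes, with 4728 at an unadjusted p under 0.05. Without MNA replicate 2 the common dispersion of the whole fit fell from 0.0333 to 0.0123.

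With the replicate block, Bcl2l11 passed with MNA (adjusted p = 0.0451) and Mcl1 no longer passed in olaparib against MNA (adjusted p = 0.0521), and no other member's call changed. For MNA not every same-numbered pair had an r over 0.1: 3 of 4 did with DMSO (-0.0094 to 0.277) and 3 of 4 with olaparib (0.0696 to 0.392), so whether the numbers pair the MNA libraries was not settled. Bax with olaparib had the opposite sign under upper quartile scaling (0.0216), the filter at a mean of 50 counts (0.0195), the replicate block (0.0072) and the block without MNA replicate 2 (0.0002), and it ran from -0.0715 to 0.0374 over omissions. In olaparib against MNA, Bak1 ran from -0.147 to 0.0386 and Bmf from -0.483 to 0.169. The cause of these shifts was not tested. Bmf was dropped by the filter at a mean of 50 counts and has no value there. The direction of every other member held in every setting.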

Other observations

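Bax and Bid are also p53 targets, and of 17 tested p53 targets 9 rose and 2 fell with olaparib, while 2 rose and 5 fell with MNA. Of all tested genes, 14.3% rose and 12.8% fell with olaparib, and 16.3% rose and 12.3% fell with MNA. In the fit without MNA replicate 2, 10 of the targets rose and 3 fell with olaparib (22.5% and 21.2% of all tested genes), and 3 rose and 8 fell with MNA (27.2% and 26.9%). Cdkn1a, the cell cycle inhibitor p21, was at 398 ± 19.3 CPM (SD, n = 4) in DMSO, rose to 558 ± 13.7 with olaparib (log2 fold change 0.49, edgeR adjusted p = 0.0240) and fell to 280 ± 76.4 with MNA (-0.51, adjusted p = 0.0247), with MNA replicate 2 at 394 CPM. Mdm2, which marks p53 for degradation, rose with olaparib (0.33, adjusted p = 0.0179) and gave -0.20 with MNA (adjusted p = 0.104). Tested directly, olaparib against MNA gave 0.99 for Cdkn1a (adjusted p = 6.09e-04) and 0.52 for Mdm2 (adjusted p = 0.00176). With olaparib Bid went the other way from these genes, and Bax did not pass the test.

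Of 10 proliferation genes, 7 rose with olaparib and 4 with MNA, beside 14.3% and 16.3% of all tested genes. When MNA replicate 2 was left out, 9 rose with olaparib, and 7 rose and 1 fell with MNA, where 22.5% rose with olaparib and 27.2% rose and 26.9% fell with MNA among all tested genes.

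For each member, the tested gene outside the family with the most similar profile over the 12 libraries was found as the smallest root mean square difference of centered log2 CPM. The fold changes and adjusted p-values of these genes largely follow from that choice in the same libraries and are no separate results. For Bcl2l11 it was Sesn1 (0.129, where Bcl2l11 itself varied by 0.343), a stress-response gene that rose with olaparib by 0.67 (adjusted p = 0.00643). For Bid it was Hk3 (0.106, beside 0.382), the hexokinase of myeloid cells, which fell with olaparib (-0.49, adjusted p = 0.00237). For Bmf it was Lrp8 (0.278, beside a spread of 1.203), which rose with olaparib (2.22, adjusted p = 0.00836) and MNA (2.59, adjusted p = 0.0142). For the others it was Med12 (Bcl2), Fahd2a (Bcl2l1), Celf2 (Mcl1), Tsfm (Bax), Gipc1 (Bak1) and Arpc5 (Bad), with differences of 0.043 to 0.072.

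The regulators Foxo3, Foxo1 and Trp53 are named after their values were seen. With olaparib Foxo3 rose (0.22, adjusted p = 0.0495), and Foxo1 (-0.35, adjusted p = 0.0368) and Trp53 (-0.26, adjusted p = 0.0145) fell. Trp53 also fell with MNA (-0.20, adjusted p = 0.0425), and did not differ by the test between the treatments (-0.06, adjusted p = 0.554). With MNA Foxo3 gave 0.03 (adjusted p = 0.820) and Foxo1 -0.15 (adjusted p = 0.317).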
